A study of Homo sapiens with 10 samples.

Results

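The VEGF family was described here through 9 genes: the ligands VEGFA, VEGFB, VEGFC and PGF, the receptor tyrosine kinases FLT1, KDR and FLT4, and the neuropilins NRP1 and NRP2. They were chosen by name in the platform annotation, each was measured by 1 probe set, and they stand among 17492 genes with a symbol. RNA came from A375, an established human melanoma cell line that carries an activating BRAF mutation. Of 10 Clariom S human HT arrays, 5 held control cells and 5 held cells plated with doxycycline at 2 µg/ml, and both groups were frozen after 4 days. The series title names Omomyc, a MYC-derived dimerisation domain that interferes with MYC and MAX, and asks about its effect on growth of this line. The labels describe no construct, promoter or clone. No array used here has a label for cells lacking Omomyc that received the drug, so effects of doxycycline and of Omomyc cannot be told apart. The arrays of a group are called biological replicas. Whether they came from separate cultures is not said, so the p-values refer only to the spread among these arrays, part of which may be technical.

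VEGF ligands are secreted growth factors that drive the growth and permeability of blood and lymph vessels. VEGFA acts mainly through KDR, also called VEGFR2. FLT1, or VEGFR1, binds VEGFA, VEGFB and PGF, and its secreted form traps ligand. VEGFC acts mainly, but not only, through FLT4, or VEGFR3, the receptor of lymphatic endothelium. Neuropilins lack a kinase and serve as co-receptors for VEGF ligands and for class 3 semaphorins. Melanoma cells are a known source of VEGFA, which is induced by hypoxia, and some melanoma cells also carry VEGF receptors and neuropilins themselves.

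Values are log2 signals after RMA. Array medians ran from 5.02 to 5.10 and first quartiles from 2.80 to 2.94, and precision is limited by having 10 arrays. Pairs of arrays correlated at 0.990 or more within a group and at 0.970 to 0.976 across groups. Of the melanocyte lineage markers, SOX10 (control mean 8.71), MITF (7.12) and S100B (7.58) lay above the median of every array. The pigmentation genes PMEL, MLANA, TYRP1, TYR, GPR143 and TRPM1 lay below the first quartile of every array.

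With doxycycline the ligands VEGFA and VEGFB fell, and the ligands VEGFC and PGF, the receptors FLT1 and KDR and the co-receptor NRP2 rose. VEGFA, the main angiogenic ligand, was 2.87-fold lower, and VEGFB was 1.22-fold lower. KDR was 2.27-fold higher, PGF 1.89-fold, VEGFC 1.65-fold, FLT1 1.48-fold and NRP2 1.23-fold. NRP1 and FLT4 did not pass the test. In all, 5 of 9 members rose and 2 fell at an adjusted p under 0.05 (limma, Benjamini-Hochberg over 18569 probe sets). Over all probe sets 38.1% changed, 20.9% higher and 17.2% lower. That share depends on signal. When probe sets under the median mean signal were left out, 3029 were higher and 2557 lower, a larger share of those tested. Every member but FLT4 had a mean above that median. The shares over all probe sets, here and beside the lists below, are not matched for signal. Only VEGFA and KDR changed by at least 1 log2 unit, a rule met by 6.47% of probe sets. The median size of change was 0.56 log2 units over the members and 0.20 over all probe sets, and the median signed change was 0.30 against 0.04. In RNA from whole cultures, fewer expressing cells and less RNA per cell cannot be told apart.

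**Figure D1:**
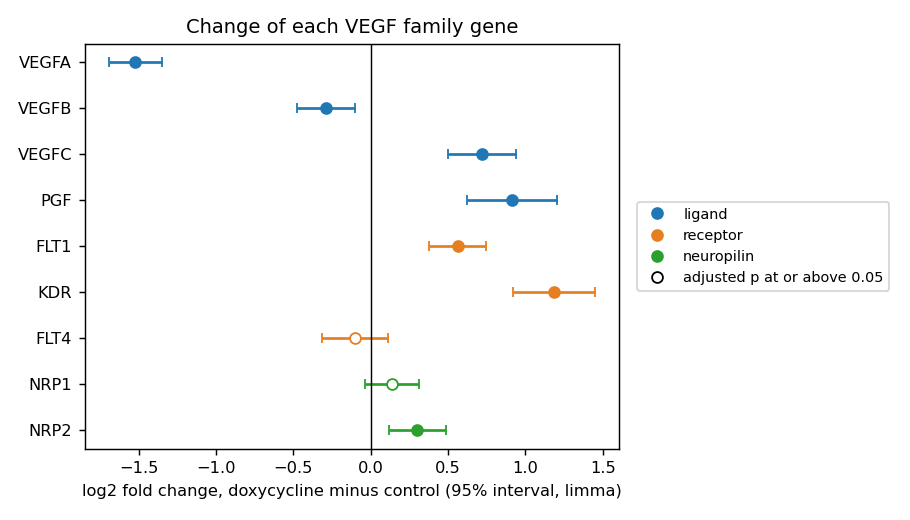
Log2 fold change of doxycycline over control for each of the 9 genes, with 95% intervals from limma and 5 arrays per group. Colours mark ligands, receptors and neuropilins, and open circles mark the 2 genes with an adjusted p at or above 0.05; VEGFA is at -1.52 and KDR at 1.18, the lowest and the highest.

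VEGFA signal was 9.06, 9.01, 9.20, 9.23 and 9.12 in control arrays 1 to 5. In doxycycline arrays 1 to 5 it was 7.69, 7.53, 7.57, 7.71 and 7.51. Every doxycycline array was thus below every control array, with a gap of 1.30 log2 units between the groups, against SDs of 0.09 in both. The log2 fold change was -1.52 ± 0.08 (SE, n = 5 per group, adjusted p = 1.80e-09), and 1.67% of all probe sets had a lower one. The annotation lists 19 RefSeq transcripts for this probe set, which are not separated by it, so the balance of VEGFA isoforms was not measured.

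VEGFB, a ligand of FLT1 with a weak part in vessel growth, was at 6.64, 6.69, 6.47, 6.65 and 6.68 in control and at 6.50, 6.45, 6.31, 6.13 and 6.27 with doxycycline. The groups overlapped by a single pair: control array 3 was below doxycycline array 1, and 4 of 5 doxycycline arrays were below the lowest control array. Its log2 fold change was -0.29 ± 0.09 (adjusted p = 0.0167). This was a small fall, and 16.5% of all probe sets had a lower value.

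VEGFC, the ligand of lymphatic growth, rose. Its control values were 7.27, 7.04, 6.86, 6.86 and 7.35, and its doxycycline values were 7.77, 7.73, 7.86, 7.85 and 7.77. The control arrays were spread over a wider range (SD 0.23) than the doxycycline arrays (SD 0.06), and the groups did not overlap. This was a log2 fold change of 0.72 ± 0.10 (adjusted p = 4.78e-05).

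PGF, placenta growth factor, binds FLT1 and not KDR. It was measured at 4.83, 4.74, 5.05, 4.74 and 5.40 in control and at 6.02, 6.15, 5.66, 5.67 and 5.82 with doxycycline. Control array 5 was the highest of its group and still 0.27 log2 units below the lowest doxycycline array. PGF changed by 0.91 ± 0.14 log2 units (adjusted p = 6.76e-05). On 4 of 10 arrays its signal was below the array's own median.

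**Figure D2:**
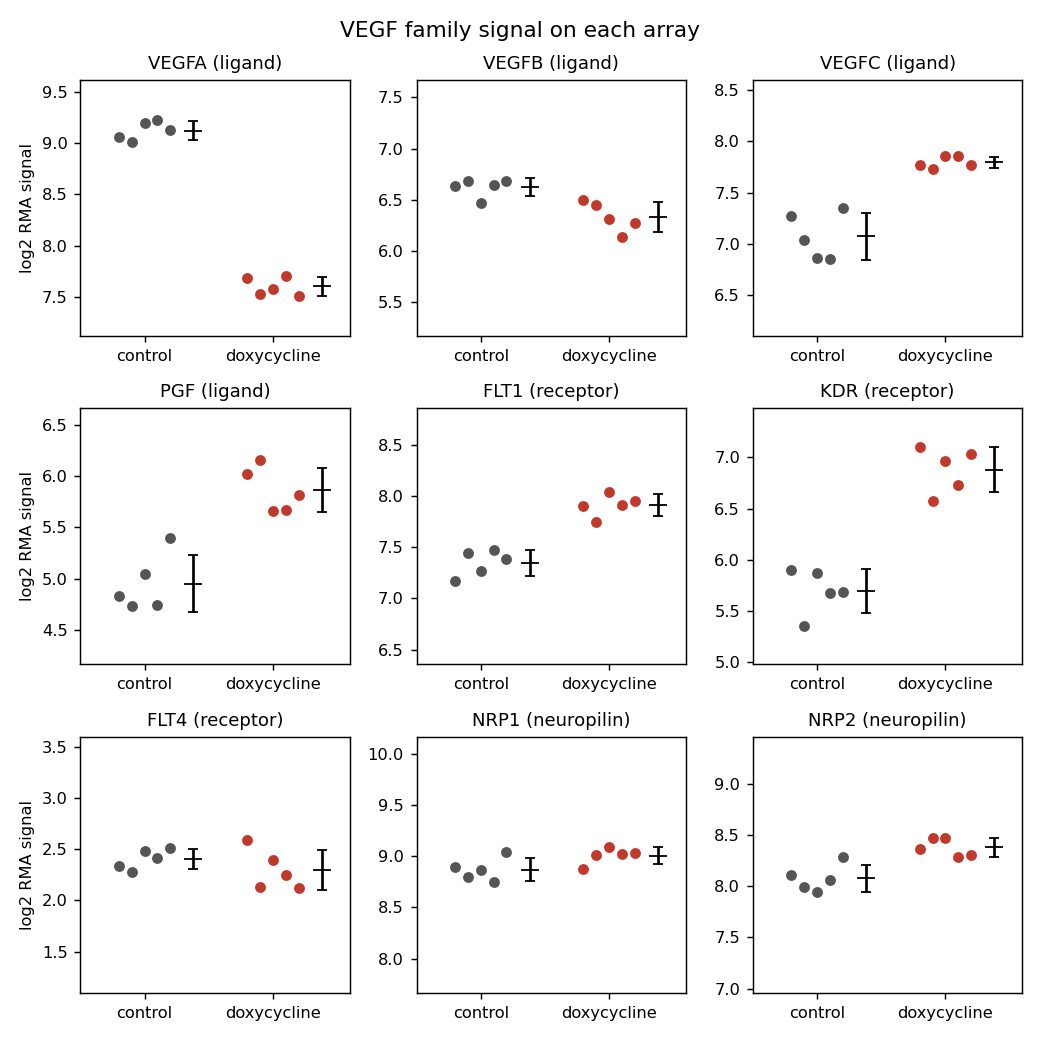
Log2 RMA signal of each of the 9 genes on every array, with points for control (grey, 5 arrays) and doxycycline (red, 5 arrays) and the group mean ± SD beside them. All panels span 2.5 log2 units, and the groups stand apart for VEGFA, VEGFC, PGF, FLT1 and KDR and overlap for VEGFB, FLT4, NRP1 and NRP2.

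Among the receptors, KDR had the largest rise. It was at 5.90, 5.36, 5.87, 5.67 and 5.69 in control and at 7.10, 6.57, 6.97, 6.73 and 7.04 with doxycycline. The lowest doxycycline array lay 0.67 log2 units above the highest control array. The log2 fold change was 1.18 ± 0.12 (adjusted p = 1.92e-06), and 1.68% of all probe sets had a higher one.

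FLT1 lay above the median of all 10 arrays. Its values were 7.17, 7.44, 7.26, 7.47 and 7.38 in control and 7.90, 7.74, 8.04, 7.91 and 7.95 with doxycycline, again with no overlap. The log2 fold change was 0.56 ± 0.09 (adjusted p = 1.03e-04). The annotation lists 4 transcripts for the FLT1 probe set, so the membrane-bound and the secreted receptor cannot be told apart here.

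FLT4, the main but not the only receptor of VEGFC, was below the first quartile on all 10 arrays. It was at 2.33, 2.28, 2.48, 2.41 and 2.51 in control and at 2.59, 2.13, 2.39, 2.25 and 2.12 with doxycycline. The groups overlapped, and the log2 fold change was -0.10 ± 0.10 (adjusted p = 0.465, 95% interval -0.32 to 0.11). At this signal RMA values are close to background, so a change of FLT4 may not be detectable. The rise of VEGFC was thus measured beside a signal of its main receptor near background.

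Of the 9 members, 5 had groups that did not overlap, 4 higher and 1 lower, where 28.6% of all probe sets stood apart, 14.9% higher and 13.6% lower. Promoter windows of 250 bases before the start were matched in the RefSeq table (GRCh38.p14) for 6 members, and VEGFA, FLT4 and NRP1 were not matched. Those of VEGFC, FLT1 and KDR are shown because these genes rose together without overlap and have 1 listed start each. All are on the minus strand and are written 5′ to 3′ towards the start, and capitals mark GC boxes (GGGCGG on either strand), a cyclic AMP response element (TGACGTCA) and a TATA box (TATAAA). They lie at chr4:176792923-176793172 for VEGFC, chr13:28495129-28495378 for FLT1 and chr4:55125596-55125845 for KDR.
VEGFC: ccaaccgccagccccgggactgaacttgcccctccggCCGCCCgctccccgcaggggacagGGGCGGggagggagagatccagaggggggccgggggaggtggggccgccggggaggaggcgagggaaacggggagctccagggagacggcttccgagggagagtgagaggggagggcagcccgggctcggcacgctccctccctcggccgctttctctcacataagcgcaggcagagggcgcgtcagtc
FLT1: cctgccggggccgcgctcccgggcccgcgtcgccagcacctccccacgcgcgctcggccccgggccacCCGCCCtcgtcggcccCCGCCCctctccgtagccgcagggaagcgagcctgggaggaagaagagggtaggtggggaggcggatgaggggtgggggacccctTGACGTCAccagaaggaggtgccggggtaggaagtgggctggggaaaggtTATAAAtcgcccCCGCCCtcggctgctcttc
KDR: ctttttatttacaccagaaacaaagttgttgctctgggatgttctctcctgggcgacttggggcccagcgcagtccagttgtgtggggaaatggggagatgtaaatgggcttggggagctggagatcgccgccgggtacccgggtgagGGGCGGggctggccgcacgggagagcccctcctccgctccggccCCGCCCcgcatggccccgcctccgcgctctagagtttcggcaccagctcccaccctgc

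FLT1 held 3 GC boxes, and a TATA box that began 31 bases before the start. Its cyclic AMP response element, a motif bound by CREB and ATF factors, began 81 bases before the start. VEGFC and KDR held 2 GC boxes each and neither of the other marked motifs. Of 27305 gene windows of this length, 42.3% held a GC box, 11.1% a TATA box and 1.77% a cyclic AMP response element on either strand. The windows of VEGFB, NRP2 and both listed starts of PGF held 2 to 6 GC boxes. An E-box (CACGTG), the motif bound by MYC and MAX, was in 6.49% of all windows, and the core of the hypoxia element (ACGTG, which the E-box contains) was in 18.7%. Neither was among the letters of the 7 windows of these 6 members, and no AP-1 site (TGANTCA, 6.60% of windows) or ATF4 element core (TGATGNAA, 3.19%) was either. A match is a description of the letters and not of binding.

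NRP1, a co-receptor of KDR, lay above the median of all 10 arrays. Its values were 8.90, 8.80, 8.87, 8.74 and 9.04 in control and 8.87, 9.02, 9.09, 9.02 and 9.03 with doxycycline, and the groups overlapped. The log2 fold change was 0.14 ± 0.08 (adjusted p = 0.214, 95% interval -0.04 to 0.31), an interval that reaches to a rise of 0.31 log2 units.

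NRP2, the co-receptor that also binds VEGFC, rose slightly. It was at 8.11, 7.99, 7.95, 8.06 and 8.29 in control and at 8.37, 8.47, 8.47, 8.28 and 8.30 with doxycycline. Control array 5 reached just above the lowest doxycycline array, and 4 of 5 doxycycline arrays were above all control arrays. NRP2 changed by 0.30 ± 0.09 log2 units (adjusted p = 0.0119).

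Whether members of one role changed unequally was tested on the per-array difference of 2 members, in 10 pairs, with an exact two-sided permutation test over all splits of the 10 arrays and adjustment over the pairs. The smallest p this design allows is 0.00794, which is 0.00992 after adjustment. Among the ligands, the log2 fold change of VEGFA minus that of VEGFC was -2.24 (95% interval -2.55 to -1.93), and VEGFA minus PGF was -2.44 (-2.82 to -2.05). VEGFA also fell further than VEGFB, with a difference of -1.23 (-1.48 to -0.98). VEGFB differed from VEGFC by -1.01 (-1.29 to -0.73) and from PGF by -1.21 (-1.54 to -0.87). All 5 of these pairs had the smallest adjusted p, 0.00992, and no overlap between the groups. For all 5 pairs this outcome was fixed by the single-gene ranges of the 2 groups. VEGFA fell and VEGFC and PGF rose, each without overlap, and the overlap of VEGFB was small beside those changes. These tests thus add nothing beyond the size of the difference. The rises of VEGFC and PGF were not shown to differ (difference -0.19, 95% interval -0.58 to 0.19, exact adjusted p = 0.294).

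Among the receptors KDR rose further than FLT1 (FLT1 minus KDR -0.62 log2 units, 95% interval -1.0 to -0.25, exact adjusted p = 0.00992). The 2 pairs with FLT4 are counted among the 10 but not read, since a signal near background can show no change of its own. The neuropilins differed by -0.16 for NRP1 minus NRP2 (-0.30 to -0.02, exact adjusted p = 0.0353). That difference was lost without any 1 of control arrays 1, 2 and 3 or doxycycline arrays 1, 2 and 3, with unadjusted exact p values of 0.0556 to 0.0635 against 0.0317 with all arrays.

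**Figure D3:**
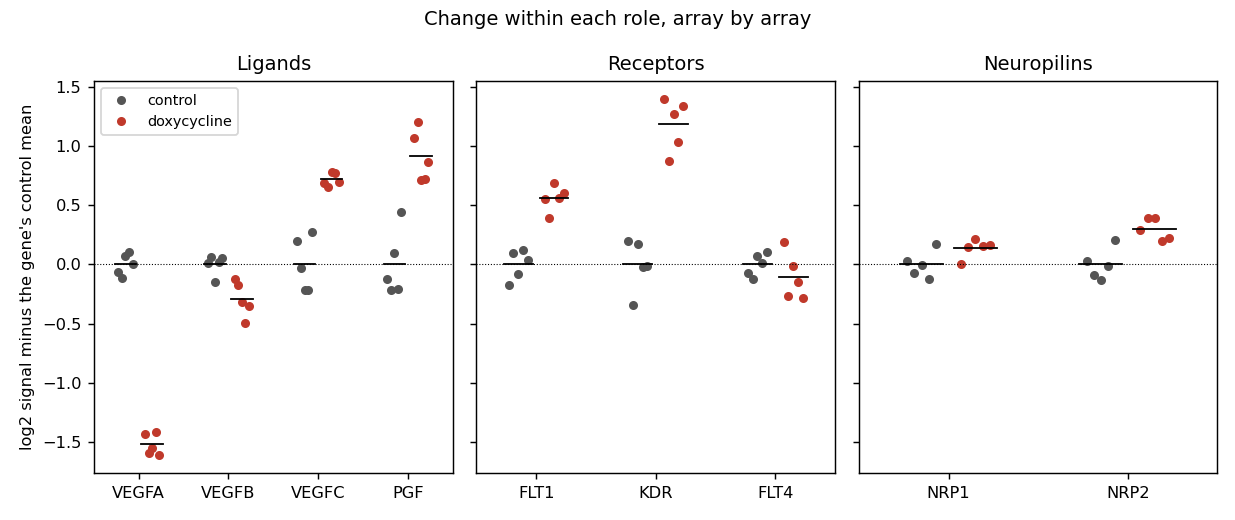
Log2 signal of each gene minus its own control mean, array by array, for ligands, receptors and neuropilins (5 control arrays in grey, 5 doxycycline arrays in red, bars at the group means). The doxycycline arrays of VEGFA lie near -1.52 while those of VEGFC and PGF lie near 0.72 and 0.91, and KDR stands above FLT1.

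Of 18 measured genes that process or hold VEGF ligands 7 rose and 1 fell, beside 20.9% and 17.2% of all probe sets, with a median log2 fold change of 0.15. SDC2, a heparan sulfate proteoglycan (0.72 ± 0.08), the gelatinase MMP2 (0.69 ± 0.08) and the proprotein convertase PCSK5 (0.62 ± 0.22) rose, and the proteoglycan SDC1 fell (-0.98 ± 0.13). FURIN, a convertase able to cleave the VEGFC precursor, rose by 0.48 ± 0.09 (adjusted p = 5.37e-04). CCBE1 and ADAMTS3, which act together in the final maturation of VEGFC, had log2 fold changes of 0.04 and 0.03 and did not pass. ADAMTS3 was close to background (mean 2.65 in control, 2.68 with doxycycline), so a change of it may not be detectable.

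The other partners of the neuropilins split evenly. Of 12 measured semaphorin, plexin and related genes 3 rose and 3 fell, with a median of -0.11, beside 20.9% and 17.2% of all probe sets. The plexins PLXNA1 (-1.41 ± 0.12) and PLXND1 (-1.36 ± 0.10), signalling receptors for semaphorins, and the adhesion molecule L1CAM (-1.64 ± 0.11) fell. PLXNA3 rose from 5.34 to 6.44 (1.10 ± 0.09), as did the neuropilin-binding semaphorins SEMA3C (1.04 ± 0.08) and SEMA3A (0.69 ± 0.11).

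Signal transduction genes downstream of the VEGF receptors moved in both directions, at shares not far from those over all probe sets. Of 45 measured 12 rose and 7 fell, with a median of 0.05. HSPB1, a small heat shock protein phosphorylated after KDR activation (0.87 ± 0.08), rose. The guanine nucleotide exchange factor VAV2 (-1.20 ± 0.13), the sphingosine kinase SPHK1 (-0.99 ± 0.14) and the kinase AKT1 (-0.93 ± 0.09) fell. PLCG1, the phospholipase that binds activated KDR, had a log2 fold change of 0.05 ± 0.12 and did not pass. RCAN1, a feedback inhibitor of calcineurin that VEGF induces in endothelium, rose by 0.78 ± 0.08 from a control level of 10.6.

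VEGFA fell while transcripts of the hypoxia-inducible factors rose. EPAS1, which encodes HIF2 alpha, rose from 6.08 to 7.21 (1.13 ± 0.12, adjusted p = 2.86e-06), ARNT, the shared beta subunit, by 0.64 ± 0.09, and HIF1A by 0.34 ± 0.09 (adjusted p = 0.00504). HIF3A (0.12 ± 0.15) did not pass. HIF proteins are controlled mainly by their stability, which an array does not measure. Of the 34 measured genes of the HIF list, which leaves VEGFA out, 14 rose and 7 fell, with a median of 0.14. Over all probe sets 20.9% rose and 17.2% fell.

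Split after the values were seen, the subunits and regulators of the list had 5 of 9 genes higher. Its 25 targets had 9 higher and 7 lower with a median of -0.01. Beside both parts stand 20.9% of all probe sets higher and 17.2% lower. The targets thus moved in both directions. SLC2A3, a glucose carrier, rose (0.93 ± 0.08), whereas the mitochondrial adenylate kinase AK4 (-1.43 ± 0.11) and the MAX partner MXI1 (-0.88 ± 0.08) fell. Both glucose carriers of the list are known hypoxia targets, and SLC2A1 fell by 0.46 ± 0.09.

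Of 23 transcription factors known to act on VEGFA 11 rose and 7 fell, with a median of 0.14, where 20.9% of all probe sets rose and 17.2% fell. The largest rises were those of the immediate early factors EGR1 (1.76 ± 0.09), FOS (1.23 ± 0.14) and JUN (1.21 ± 0.11) and of the melanocyte factor MITF (1.21 ± 0.08). STAT3 (0.80 ± 0.07), MYC (0.61 ± 0.10), the lysosomal regulator TFEB (0.51 ± 0.08), SP1 (0.34 ± 0.09) and CREB1 (0.30 ± 0.08) also rose. Omomyc derives from MYC, and whether the MYC probe set also detects its RNA was not tested.

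The factors that fell were FOXM1, a driver of the G2/M programme (-1.81 ± 0.11), the AP-1 subunit FOSL1 (-1.60 ± 0.09), E2F1 (-1.21 ± 0.14) and ETS1 (-1.11 ± 0.10). ATF4, the amino acid response factor (-0.59 ± 0.09), the unfolded protein response factor XBP1 (-0.57 ± 0.08) and TFAP2A (-0.38 ± 0.09) fell as well. PPARGC1A (-0.25), ESRRA (-0.24), KLF4 (-0.16), NRF1 (-0.11) and SP3 (0.14) did not pass. Which of these factors acted on VEGFA was not tested.

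**Figure D4:**
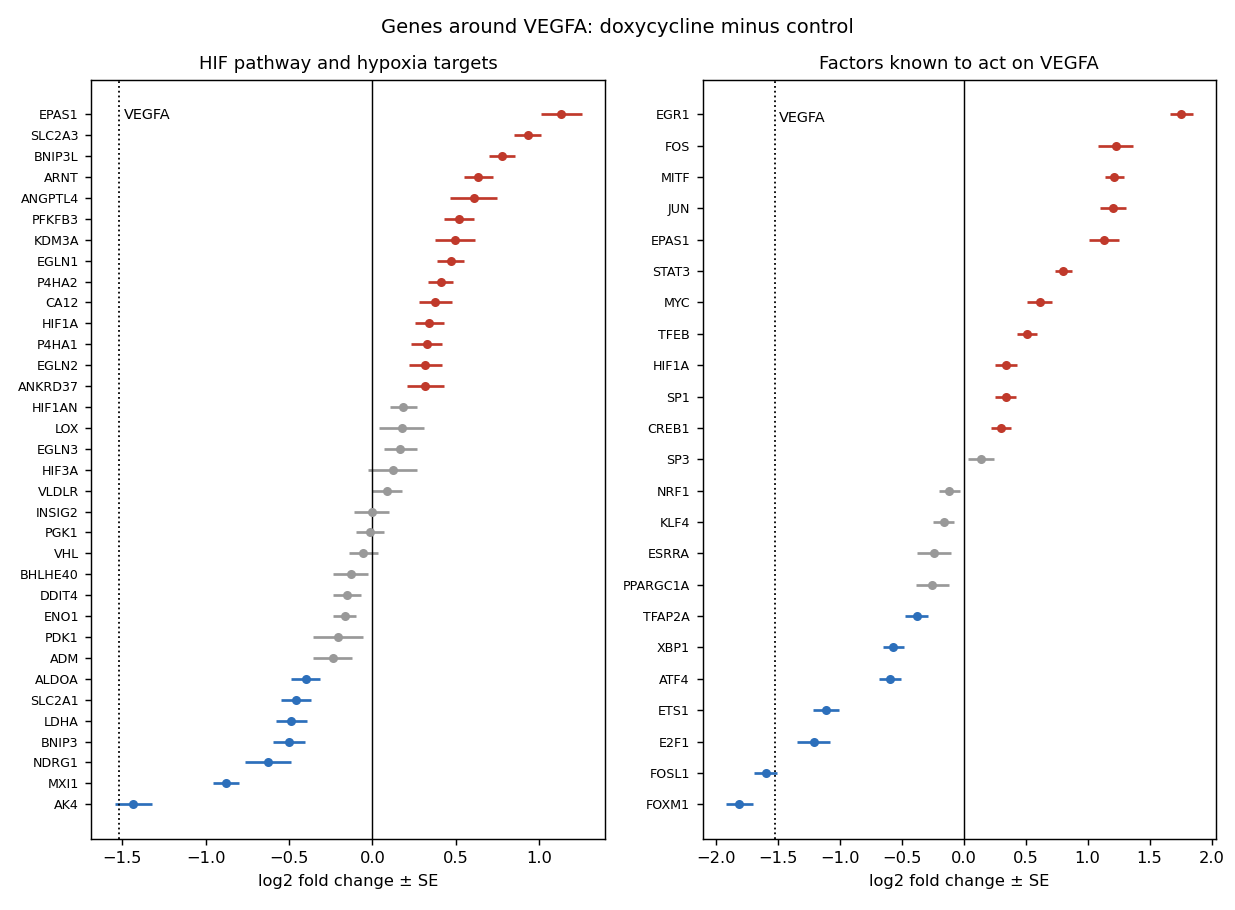
Log2 fold change ± SE of doxycycline over control for the 34 measured genes of the HIF list and the 23 measured factors known to act on VEGFA (red, rose; blue, fell; grey, adjusted p at or above 0.05). The dotted line marks VEGFA at -1.52, below every gene of the HIF list, while EPAS1 is the highest of that list at 1.13.

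Proteins known to bind VEGFA RNA changed in 5 of 9 cases, 3 higher and 2 lower, where 38.1% of all probe sets changed, 20.9% higher and 17.2% lower. ZFP36, which promotes decay of RNAs with AU-rich elements, rose from 6.13 to 7.63 (1.50 ± 0.09, adjusted p = 9.83e-09). Its relative ZFP36L2 fell by 1.30 ± 0.08, and ZFP36L1 (0.13 ± 0.09) did not pass. HNRNPL (0.38 ± 0.08) and the helicase DDX6 (0.27 ± 0.08) rose and YBX1 (-0.62 ± 0.07) fell. ELAVL1, a stabilising protein (-0.06), HNRNPA2B1 (-0.12) and QKI (0.10) did not pass.

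Of 24 other angiogenic ligands 8 rose and 3 fell, with a median of 0.17, against 20.9% and 17.2% of all probe sets. FGF1, a fibroblast growth factor (1.55 ± 0.09), the chemokine CXCL8 (1.36 ± 0.12) and osteopontin, SPP1 (1.26 ± 0.12), rose. PDGFA, from the growth factor family most related to VEGF, fell from 6.25 to 3.84 (-2.42 ± 0.13), a larger fall than that of VEGFA, although the difference was not tested.

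Of 26 other angiogenic receptors 9 rose and 3 fell, with a median of 0.06, against the same shares of all probe sets. The chemokine receptor CXCR4 rose from 3.07 to 5.20 (2.13 ± 0.13), and PDGFRA (1.64 ± 0.14), PDGFRB (1.16 ± 0.10) and NOTCH2 (0.85 ± 0.12) rose too. PDGFRA and PDGFRB are receptor kinases of the class next to the VEGF receptors. With KDR and FLT1, they rose in the same arrays in which PDGFA and VEGFA fell. Other ligands of both families rose: PDGFB (0.42 ± 0.12), PDGFC (0.71 ± 0.12) and PDGFD (0.43 ± 0.15), and VEGFC and PGF.

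Angiogenesis inhibitors rose in 7 of 20 cases and fell in 2, with a median of 0.27, beside 20.9% and 17.2% over all probe sets. ADAMTS1, a protease that binds VEGFA and releases antiangiogenic fragments (2.09 ± 0.13), thrombospondin, THBS1 (1.13 ± 0.08), and SPRY1, an inhibitor of receptor kinase signalling (0.97 ± 0.11), rose. TIMP3, which blocks binding of VEGFA to KDR, fell from 11.5 to 10.0 (-1.51 ± 0.08).

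**Figure D5:**
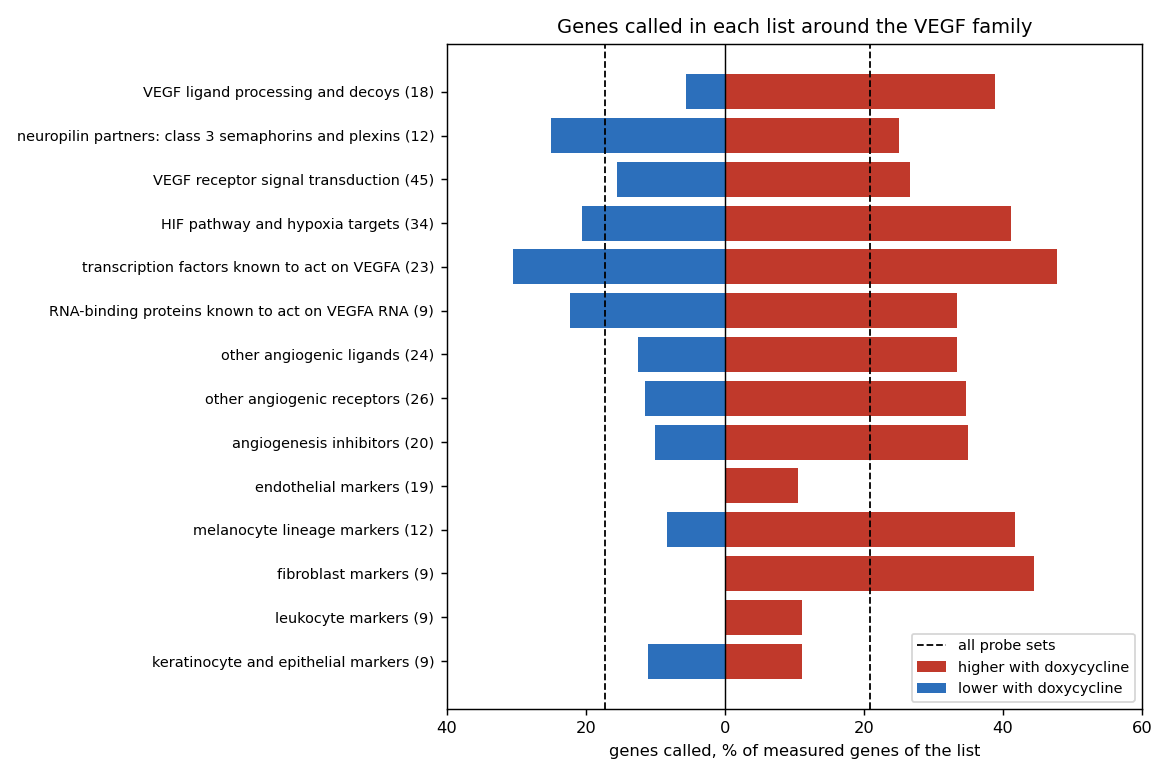
Share of measured genes called higher (red, right) or lower (blue, left) with doxycycline in each list, with the number of measured genes in brackets and dashed lines at 20.9% and 17.2%, the shares over all probe sets. The factors known to act on VEGFA have 11 of 23 genes higher and 7 lower, and the endothelial markers have 2 of 19 higher.

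KDR and FLT1 are best known from endothelium, and markers of other cell types were therefore read beside them. Of 19 endothelial markers 2 rose, the lymphatic factor PROX1 (0.43 ± 0.08) and ROBO4 (0.59 ± 0.11), where 20.9% of all probe sets rose. The count was 4 without doxycycline array 4 or with each array's median subtracted, and 6 with array weights. The list mean was 3.14 to 3.33 in control and 3.29 to 3.50 with doxycycline. On every array 7 of the 19 were below the first quartile: PECAM1, CDH5, TEK, CD34, CLDN5, MMRN2 and PLVAP. PROX1 (6.02 in control, 6.45 with doxycycline) and EGFL7 (5.94 and 5.70) were above the median of every array. The other 10 lay between, among them TIE1 (4.52 and 4.46), ROBO4 (4.27 and 4.86), ESAM (4.09 and 4.22) and VWF (3.58 and 3.63).

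The counts of the next 4 lists stand beside 20.9% of all probe sets higher and 17.2% lower. Fibroblast markers rose in 4 of 9 cases, namely LUM (1.52 ± 0.10), PDGFRB, DCN (0.40 ± 0.12) and COL1A1 (0.32 ± 0.11). Their list means were 3.51 to 3.63 in control and 3.93 to 4.05 with doxycycline. On every array 3 of the 9 were below the first quartile (FAP, THY1 and PDPN) and PDGFRB was above the median (5.50 in control, 6.66 with doxycycline). Neither held on every array for COL1A2 (4.60 and 4.65), COL1A1 (4.43 and 4.74), FBLN1 (4.09 and 4.33), LUM (3.45 and 4.97) and DCN (3.40 and 3.79). Of 9 leukocyte markers CD14 rose (0.51 ± 0.09), and the list mean was 3.40 to 3.56 in control and 3.50 to 3.63 with doxycycline. On every array 4 of these 9 were below the first quartile, and CD68 (8.84 in control, 9.04 with doxycycline) was above the median. Among 9 keratinocyte and epithelial markers KRT5 rose (0.39 ± 0.12) and KRT8 fell (-0.84 ± 0.08), with means of 3.67 to 3.81 and 3.63 to 3.72, and 1 passed without control array 2 or control array 3 and 4 with array weights. KRT8 (7.78 in control, 6.94 with doxycycline) and KRT18 (9.20 and 9.09) were above the median of every array, and 4 of these 9 were below every first quartile. In the melanocyte lineage list 5 of 12 rose and 1 fell, led by MITF, PAX3 (0.88 ± 0.12), S100A1 (0.86 ± 0.09) and, lower, CSPG4 (-1.40 ± 0.12). TYR is counted among the 5 (1.83 in control, 2.05 with doxycycline), although it was below the first quartile of every array. The list mean was 4.77 to 4.89 in control and 4.94 to 5.08 with doxycycline. The part of these lists in the changes of the VEGF family was not tested.

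The genes with the most similar profiles were found for each of the 7 changed members by the root mean square difference of centred log2 values over the 10 arrays. The nearest to VEGFA were the mitotic kinase gene AURKB (0.0735 log2 units), NT5DC2 (0.0880) and RNF187 (0.0913). VEGFC was nearest to TRIM38 (0.0748), ZNF587 (0.0824) and ZNF224 (0.0879), and PGF to CHPF (0.120), ING4 (0.120) and SLC39A11 (0.133). VEGFB was nearest to WDR74 (0.0549), FIP1L1 (0.0604) and RTL8A (0.0732).

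For the receptors, FLT1 was nearest to the collagen-modifying enzyme gene PLOD2 (0.0589), the basement membrane gene NID1 (0.0677) and TET2 (0.0755). KDR had more distant neighbours, RFTN2 (0.154), the semaphorin receptor PLXNA3 (0.156) and the immediate early factor EGR3 (0.158). NRP2 was nearest to ADPGK (0.0709), PRAME (0.0735) and ZNF550 (0.0766). Genes with a like change between the 2 groups are favoured by this measure.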

How the data were processed

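Biotin-labelled total RNA of A375 cells was measured on Clariom S human HT arrays, 5 per group. The authors deposited log2 values of 18569 probe sets, which RMA produced per the submitters' processing notes. The sources used here do not give its version, the library file or filters. RMA equalises arrays, so a fold change is relative to other genes, and dim signals are compressed. Of the probe sets 17511 have 1 symbol, 0 several and 1058 none here. Doxycycline was compared with control on all probe sets with limma 3.58.1 (lmFit, eBayes; R 4.3.3) with group as the only term, two-sided, with Benjamini-Hochberg adjustment and a threshold of 0.05. Errors are SDs over 5 arrays for levels and moderated standard errors for fold changes. Exact permutation tests compared members within a role. Members and lists were chosen with earlier results of these data known. Gene lists numbered 14, and no list test was run.

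Named were all members, up to 4 called genes per list by size (all where at most 5 were called), all listed factors and RNA-binding proteins acting on VEGFA, the HIF subunits and the 3 nearest profiles per changed member. FURIN, CCBE1, ADAMTS3, SEMA3A, SEMA3C, PLCG1, RCAN1, SLC2A1, PDGFB, PDGFC, PDGFD and the cell type markers that did not lead a list were named after their values were seen. On simulated arrays with 18569 probe sets, 50 changed at each size, the model recovered 10%, 54%, 98% and 100% of changes of 0.25, 0.5, 1 and 2 log2 units, with 4 false calls among 135. On the real arrays 7078 probe sets were called, so the adjusted threshold was stricter in the simulation. Its recovery of small changes may therefore differ from that on the real arrays. Alternatives were filters on dim probe sets, scaling, eBayes settings, array weights, a replicate block and leaving out each array. For each member an unadjusted exact permutation test was run as well.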

Additional observations from a re-analysis of the deposited data

Results flagged for a closer look

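In 14 of 202 groups of 5 arrays (2 groups for each of 101 named genes), the highest or lowest array stood apart from the other 4 by more than 0.71 of the group's range; chance gives about 1 in 20 such groups. VEGFB was the one family member among them: control array 3, at 6.47 log2 units, lay below the other control arrays at 6.64 to 6.69, and without it the VEGFB change kept its call. Control array 1 was low for PDGFRA (3.91 against 4.58 to 4.80) and TET2 (6.38 against 6.71 to 6.84) and high for LUM (3.71 against 3.36 to 3.42). Control array 3 was high for COL1A1 (4.76 against 4.29 to 4.41). Control array 5 was low for HIF1A (9.25 against 9.51 to 9.56) and DCN (3.09 against 3.40 to 3.51). Doxycycline array 1 was low for NOTCH2 (9.55 against 9.98 to 10.1) and ZFP36L1 (9.47 against 9.71 to 9.77) and high for RTL8A (7.93 against 7.66 to 7.70). Doxycycline array 2 was low for DDX6 (9.74 against 9.91 to 9.97) and NID1 (10.6 against 10.8 for the others) and high for ZNF550 (6.89 against 6.76 to 6.79). Doxycycline array 5 was low for PDGFA (3.32 against 3.91 to 4.06).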

How the results depend on the processing

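Each of the 9 members kept its direction and its side of the threshold under all alternatives run (18 for each, 16 for FLT4, which the filters on dim probe sets remove), so 5 members were higher and 2 lower throughout. Among these alternatives was a single-gene exact permutation test, whose unadjusted p was read at 0.05. It repeats the main fold change, so it could not alter the direction. The members' log2 fold changes ranged from -1.55 to -1.49 for VEGFA, from -0.33 to -0.24 for VEGFB, from 0.67 to 0.79 for VEGFC, from 0.84 to 1.03 for PGF, from 0.52 to 0.60 for FLT1, from 1.10 to 1.26 for KDR and from 0.27 to 0.35 for NRP2. The weakest calls without 1 array had adjusted p values of 0.0444 for VEGFB and 0.0387 for NRP2 (limma). Over all probe sets, 3029 to 4393 were higher and 2557 to 3450 lower. For NRP1 minus NRP2 the difference of change ranged from -0.19 to -0.13 without 1 array. Filtering out probe sets under the median leaves fewer genes to test: 5 other angiogenic ligands, 1 fibroblast marker, 1 epithelial marker and 0 leukocyte markers were called by limma, with 1 leukocyte marker left, at an unadjusted p under 0.05. Filtering under the 25th percentile left 1 epithelial marker called. With array weights 6 endothelial and 4 epithelial markers were called, and with each array's median subtracted 4 endothelial markers; the cause was not tested. Without 1 array the endothelial count ranged from 2 to 4 and the epithelial count from 1 to 3. Arrays with the same replicate number did not deviate together (correlations of -0.437 to -0.00746, and 0 of 5 arrays correlated best with its own number). With a replicate block 5 members were higher and 2 lower, and VEGFA had a log2 fold change of -1.52 (adjusted p = 7.99e-07). Averaging probe sets of a gene was not run, since each list gene has 1. The number of arrays and signals near background limit what can be seen for FLT4.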
